A study of Mus musculus with 18 samples.

Results

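The comparison asked whether 6 h of pemafibrate acted differently on gene expression in cultured hepatocytes by the time of day that the exposure mimicked. Each pemafibrate library was set against the DMSO library of the same replicate number as a difference of log2(signal + 1), the pemafibrate effect of that pair. The mean effect over T14 to T20, the day-like window, was then set against that over T24 to T30, the night-like window. The comparison took 12 of the 18 libraries of the series, and 13226 genes with a mean signal of at least 10 over the 12 libraries were tested.

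The cells were AML12, an immortalized, non-transformed hepatocyte line that was established from a mouse carrying a human TGFα transgene, so all libraries come from 1 line. The 4 groups were pemafibrate over T14 to T20, DMSO over T14 to T20, pemafibrate over T24 to T30 and DMSO over T24 to T30, with 3 libraries each, and DMSO is the solvent of the compound. Both exposures lasted 6 h, so the windows differ in when the cells were exposed. The night-like window is also the later one, so that time of day and hours since synchronization cannot be told apart. The sources used here give neither the dose of pemafibrate nor the way in which the cells were synchronized.

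Pemafibrate is a selective modulator of PPARα, a nuclear receptor that binds DNA as a heterodimer with a retinoid X receptor and switches on genes for the uptake, transport and oxidation of fatty acids. Its preferred site is a direct repeat of AGGTCA with 1 base between the copies, called DR1. The circadian clock is a feedback loop in which BMAL1 and CLOCK drive genes through E-boxes (CACGTG), among them the PER and CRY repressors and the REV-ERB receptors. A second layer of clock output runs through the D-box (TTATGTAA), bound by DBP, TEF, HLF and the repressor NFIL3. In mouse liver Ppara itself is transcribed rhythmically.

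Promoter sequences are shown for 3 PPARα targets that carry the results below: Plin2 and Cpt1a, which rose in both windows, and Acadm, whose pair effects had opposite signs in the 2 windows. Each window of 300 bases runs 5′ to 3′ along the gene's strand, from 250 bases before the start of transcription to 50 after it, taken from RefSeq (GRCm38.p6). Capitals mark AGGTCA on the opposite strand, which reads TGACCT, and the E-box CACGTG. The coordinates are chr4:86670010-86670309 (minus strand) for Plin2, chr19:3323051-3323350 (plus strand) for Cpt1a and chr3:153944594-153944893 (minus strand) for Acadm.
Plin2: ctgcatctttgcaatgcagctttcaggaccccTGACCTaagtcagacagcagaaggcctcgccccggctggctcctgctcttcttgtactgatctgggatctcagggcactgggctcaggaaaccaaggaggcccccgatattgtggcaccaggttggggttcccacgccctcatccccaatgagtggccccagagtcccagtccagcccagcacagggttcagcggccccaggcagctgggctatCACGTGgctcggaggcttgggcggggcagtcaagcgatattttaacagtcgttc
Cpt1a: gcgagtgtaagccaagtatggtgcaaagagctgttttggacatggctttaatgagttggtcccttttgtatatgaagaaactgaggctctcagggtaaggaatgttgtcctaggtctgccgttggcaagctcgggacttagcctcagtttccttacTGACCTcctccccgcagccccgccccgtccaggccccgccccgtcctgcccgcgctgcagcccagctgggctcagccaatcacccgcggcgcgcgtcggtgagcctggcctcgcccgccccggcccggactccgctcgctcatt
Acadm: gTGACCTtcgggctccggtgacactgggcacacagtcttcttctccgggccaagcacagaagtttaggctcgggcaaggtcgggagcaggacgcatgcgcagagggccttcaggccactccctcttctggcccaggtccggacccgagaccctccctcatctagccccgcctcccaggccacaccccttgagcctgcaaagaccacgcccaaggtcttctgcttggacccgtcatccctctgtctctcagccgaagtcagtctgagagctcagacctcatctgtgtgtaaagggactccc
All 3 windows held AGGTCA at 1 place and none held an exact DR1. The 3 genes are among the 5 with this motif named below, so its presence in all 3 describes the choice of genes. In Acadm the motif starts at base 2 of the window, and bases before the window were not searched. Promoters were found for 12 of the 16 core PPARα targets that were tested. At least 1 AGGTCA on either strand, a motif chosen once the data were known and part of every DR1, was found for 5 of these 12 genes (Acadm, Cd36, Cpt1a, Creb3l3 and Plin2). Counted by promoter, it was in 5 of the 14 promoters of these genes and in 16.3% of all 32851 promoters. The E-box, which reads the same on both strands, was found for Plin2 alone among the 12, in 1 of the 14 promoters, and in 7.15% of all promoters. Neither a DR1, held by 0.0396% of all promoters, nor a D-box, held by 0.938%, was found for any of the 12 on either strand. Both were sought as exact matches and are so rare that their absence from 14 promoters tells little. A match describes the letters in this window and not a bound site, and its absence says only that the letters are not in the window.

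The normalized totals of the 12 libraries ran from 32268547 to 33884634, and the depth in reads is unknown. Libraries of the same replicate number deviated together from their group means, with correlations across genes of 0.36 to 0.63 in the 6 pairs within windows and 0.34 to 0.49 across windows. Different numbers gave −0.43 to −0.14 within windows. Hepatocyte markers were present (summed signal over 22 genes 80910 to 97479), but Cps1, Asgr1, Cyp7a1, Apoa2 and Apoc3, markers of mature hepatocytes, had means under 2. Cholangiocyte markers, mostly Spp1 and Cd24a, summed to 67758 to 102610. Markers of other cell types summed to at most 149 (fibroblasts and stellate cells), 367 (macrophages and leukocytes, of which 2 of 8 were at 0) and 30.01 (endothelial cells), with overlapping ranges between treatments. The labels do not say whether the replicates were separate cultures. A p-value here sets an effect against the spread of the pair effects, pooled over both windows. That spread may be technical.

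The response to pemafibrate that could be called in either window consisted of rises, with genes that handle fatty acids among them, and 6 of the 10 genes called in the day-like window were also called in the night-like window. Over T14 to T20, 10 genes rose (0.0756% of those tested), among them Acot1, Acot2, Angptl4, Cpt1a, Plin2, Aldh1a1, Hsdl2, Nrep and Zfp799, and none fell. Over T24 to T30, 6 genes rose (0.0454%), all of them among those 10, including Acot1, Angptl4, Cpt1a, Plin2 and Aldh1a1, and none fell. The effect of pemafibrate differed between the windows for 0 of 13226 genes (0% called by limma with Benjamini-Hochberg adjustment at 0.05, paired by replicate number). The smallest adjusted p of a difference was 0.274, shared by 17 genes. At an unadjusted p under 0.05 the difference was larger over T14 to T20 for 577 genes (4.36%) and smaller for 703 (5.32%), 1280 in all (9.68%), where evenly spread p-values would give 661. The unadjusted p was under 0.05 for 956 genes over T14 to T20 and for 1203 over T24 to T30.

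The difference between windows had a median standard error of 0.090 on the log2 scale, with 3 pairs a window. Its 95% interval reached a median of 0.20 to either side, with 0.11 at the 10th percentile of genes and 0.84 at the 90th. For 10118 genes (76.5%) the whole interval lay within a 1.5-fold difference of effects either way. For the other genes a difference of that size was not excluded by the interval. The calls within windows rested on the pairing, on the variance trend and on single replicates. Without the pairing, or without the trend, limma called 0 genes over T14 to T20 (105 and 902 at an unadjusted p under 0.05) and 0 over T24 to T30 (125 and 1047), and with no filter on low values it called 4 and 0. Without replicate 1, 2 or 3 it called 1, 5 or 2 genes over T14 to T20 and 2, 1 or 0 over T24 to T30, with Acot1 the 1 gene called over T14 to T20 without replicate 1. Leaving out 1 replicate or 1 pair in turn gave 0 or 1 call for the difference, namely Cbx3-ps6 without replicate 1, Rpl15-ps3 without the T14 to T20 pair of replicate 2, and Col7a1 without replicate 2 or without its T24 to T30 pair. Cbx3-ps6 and Rpl15-ps3 are pseudogenes, whose reads are hard to divide from those of their parent genes.

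**Figure D1:**
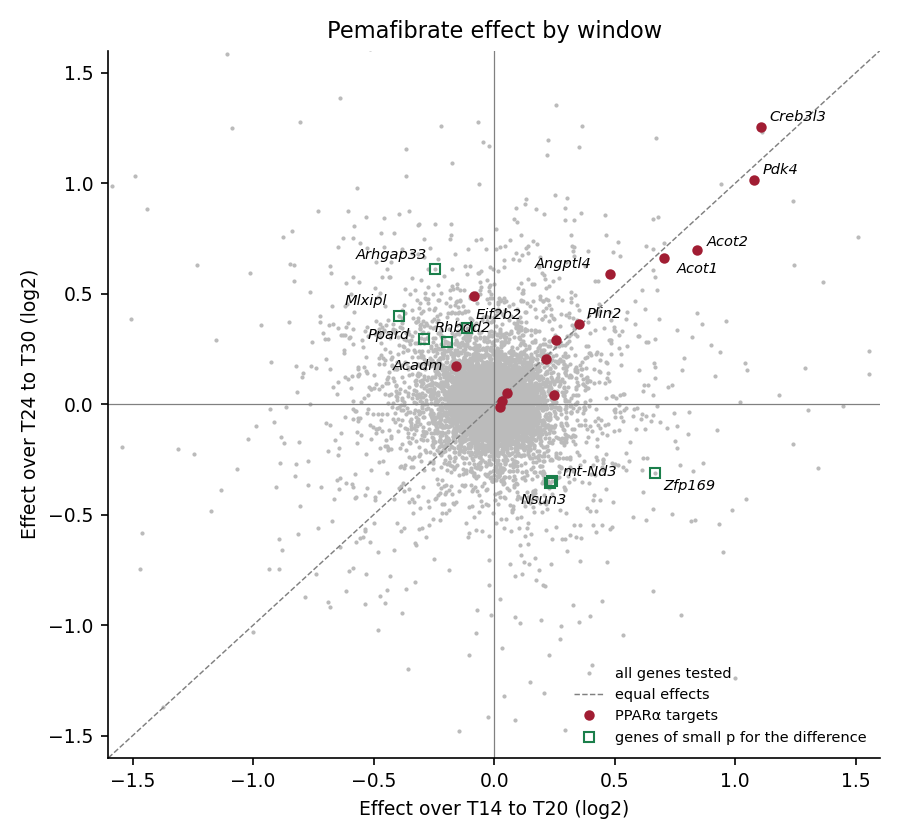
Mean pemafibrate effect over T24 to T30 (vertical axis) against that over T14 to T20 (horizontal axis), both as log2(signal + 1) of pemafibrate minus DMSO, n = 3 pairs each, for all 13226 genes tested, of which 39 lie outside the axes. Grey points are all genes, filled red points are 14 of the 16 tested core PPARα targets and open green squares are 8 genes with small p-values for the difference. Creb3l3, Pdk4, Acot2, Acot1, Angptl4 and Plin2 lie near the dashed line of equal effects, above 0 in both windows, while the green squares lie in the quadrants of opposite sign.

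Acyl-CoA thioesterases, which free fatty acids from coenzyme A, were among the genes called. Acot1 (ENSMUSG00000072949), the cytosolic enzyme, had a signal of 3970, 4033 and 2781 in replicates 1, 2 and 3 with pemafibrate over T14 to T20, against 2164, 2626 and 1807 with DMSO. The values over T24 to T30 were 4768, 4667 and 3181 with pemafibrate, against 2804, 3098 and 2065 with DMSO. The pemafibrate and DMSO libraries of a window did not overlap, and replicate 3 was low under both treatments. Acot1 rose by 0.71 ± 0.06 (SE) on the log2 scale over T14 to T20 (adjusted p = 0.0028) and by 0.66 ± 0.06 over T24 to T30 (adjusted p = 0.0073). The difference was 0.05, with a 95% interval of −0.13 to 0.22 (adjusted p = 0.877).

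Acot2 (ENSMUSG00000021226) is the mitochondrial paralog, and the division of reads between both genes is uncertain. Its signal was 504, 393 and 318 with pemafibrate over T14 to T20, against 253, 235 and 183 with DMSO, so that the groups did not overlap. In the night-like window the signal was 608, 464 and 316 with pemafibrate, against 325, 305 and 210 with DMSO, and here pemafibrate replicate 3 lay below DMSO replicate 1. Acot2 rose by 0.84 ± 0.09 over T14 to T20 (adjusted p = 0.014), while its effect of 0.70 ± 0.09 over T24 to T30 just missed the threshold (adjusted p = 0.0532). The test of the difference itself gave 0.14 ± 0.13 (adjusted p = 0.740), so the call in 1 window only does not show a difference between windows.

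Angptl4 (ENSMUSG00000002289) encodes a secreted inhibitor of lipoprotein lipase and was even between replicates. With pemafibrate it had 2058, 2050 and 1848 over T14 to T20, against 1350, 1498 and 1420 with DMSO. With pemafibrate over T24 to T30 the values were 1979, 2039 and 1834, against 1263, 1336 and 1290 with DMSO. Every pemafibrate library of a window exceeded every DMSO library of that window. The rise was 0.48 ± 0.05 over T14 to T20 (adjusted p = 0.014) and 0.59 ± 0.05 over T24 to T30 (adjusted p = 0.0073), a difference of −0.11 with an interval of −0.27 to 0.06 (adjusted p = 0.656).

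Plin2 (ENSMUSG00000028494), which coats lipid droplets and whose promoter is printed above, had 13684, 12862 and 12627 with pemafibrate over T14 to T20, against 10148, 10540 and 10022 with DMSO. The values over T24 to T30 were 15300, 13645 and 11303 with pemafibrate, against 10905, 10970 and 9299 with DMSO. The groups did not overlap in either window, though the pemafibrate libraries spread more widely over T24 to T30. Plin2 rose by 0.35 ± 0.04 and by 0.36 ± 0.04 over T14 to T20 and T24 to T30 (adjusted p = 0.030 and 0.032). The difference of −0.01 had an interval of −0.15 to 0.13.

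Cpt1a (ENSMUSG00000024900), the carnitine palmitoyltransferase that controls fatty acid entry into mitochondria, had 14854, 14883 and 13058 with pemafibrate over T14 to T20, against 11992, 12805 and 11012 with DMSO. In the night-like window the signal was 14647, 14823 and 13708 with pemafibrate, against 11331, 12446 and 11492 with DMSO. Again the groups did not overlap. The effects were 0.26 ± 0.03 over T14 to T20 (adjusted p = 0.032) and 0.29 ± 0.03 over T24 to T30 (adjusted p = 0.022). The interval of the difference ran from −0.14 to 0.07 (adjusted p = 0.837).

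**Figure D2:**
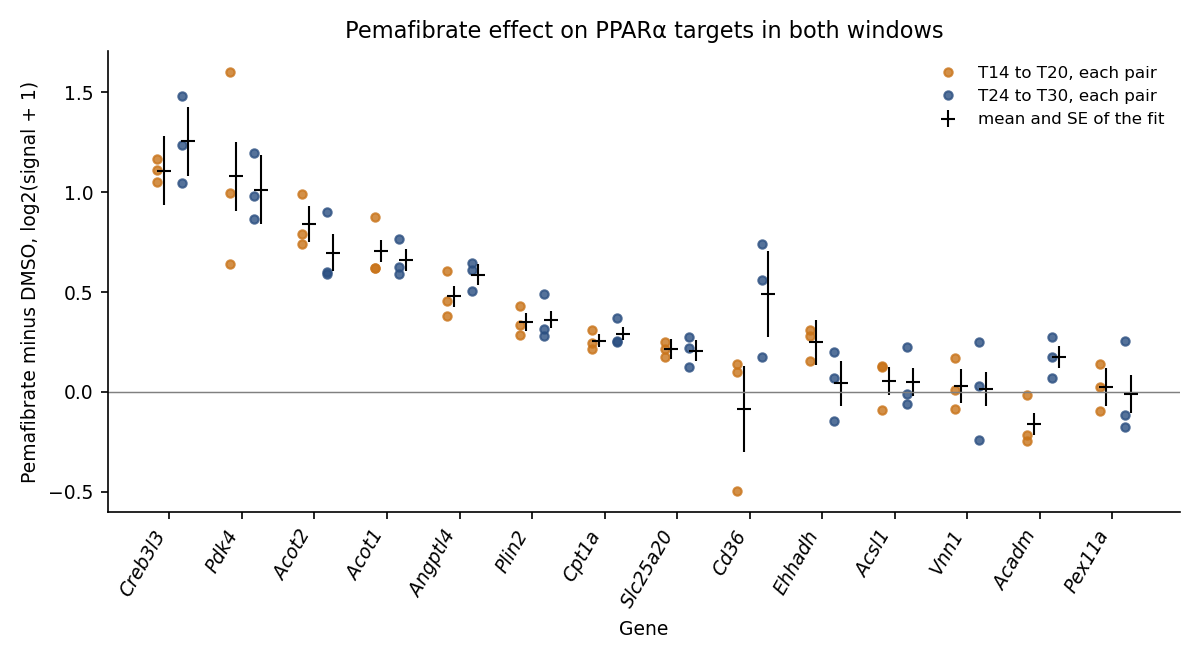
Pemafibrate minus DMSO in each pair, in log2(signal + 1), for 14 of the 16 tested core PPARα targets. Orange points are the 3 pairs over T14 to T20, blue points the 3 pairs over T24 to T30, and black crosses the mean and standard error of the fit. From Creb3l3 to Slc25a20 all pairs of both windows lie above 0, for Cd36 the orange points lie on both sides of 0, and for Acadm the orange points lie below 0 and the blue points above it.

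Pdk4 and Creb3l3 had larger effects, low signals and wide errors. Pdk4 (ENSMUSG00000019577), the kinase that shuts off pyruvate dehydrogenase, had 220, 162 and 151 with pemafibrate over T14 to T20, against 71.6, 80.98 and 96.5 with DMSO. With pemafibrate over T24 to T30 the values were 228, 161 and 168, against 98.9, 81.3 and 91.9 with DMSO. Pemafibrate values were well above DMSO values in every pair, but the pair effects ran from 0.64 to 1.604 over T14 to T20. The effects of 1.08 ± 0.17 and 1.01 ± 0.17 did not pass over all genes (adjusted p = 0.116 over T14 to T20 and 0.212 over T24 to T30).

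Creb3l3 (ENSMUSG00000035041), a liver transcription factor of the endoplasmic reticulum membrane, had 108, 65.3 and 64.3 with pemafibrate over T14 to T20, against 47.7, 29.7 and 30.5 with DMSO. The values over T24 to T30 were 99.9, 55.1 and 38.9 with pemafibrate, against 35.1, 26.1 and 15.9 with DMSO. The level followed the replicate number under both treatments, with replicate 1 highest, while all 6 pair effects lay between 1.05 and 1.48. Its effects were 1.11 ± 0.17 over T14 to T20 and 1.25 ± 0.17 over T24 to T30 (adjusted p = 0.102 and 0.0649), and the interval of the difference reached from −0.70 to 0.41.

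Among all 16 tested core targets, of 21 listed, 10 were higher with pemafibrate in 6 of 6 pairs, beside 1.78% of all genes, and none was lower in 6 of 6, beside 2.03% of all genes. The median effect of the 16 was 0.253 over T14 to T20 (14 positive) and 0.327 over T24 to T30 (15 positive), beside medians over all genes of −0.0023 and −0.0007. The effect was larger over T14 to T20 for 9 targets and smaller for 7, and 1 of the 16 (Acadm) had an unadjusted p under 0.05 for the difference, beside 9.68% of all genes. The median difference of the 16 was 0.006, while the medians taken within replicates 1, 2 and 3 were −0.038, −0.006 and −0.014, so even its sign depends on how it is taken. Slc25a20, the carnitine-acylcarnitine carrier, had effects of 0.21 ± 0.05 in both windows, positive in all 6 pairs. Ehhadh, the bifunctional enzyme of peroxisomal β-oxidation, had 0.25 ± 0.11 over T14 to T20 and 0.04 ± 0.11 over T24 to T30. The effects of Acsl1 (acyl-CoA synthetase), Vnn1 (pantetheinase) and Pex11a (peroxisome division) lay between −0.01 and 0.06 in both windows. The 5 untested targets, with means below the minimum, were Fabp1, Cidec, Fgf21, Cyp4a14 and Cyp4a10. None of the genes named here passed adjustment over all genes in either window.

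Outside the core targets, Aldh1a1 (ENSMUSG00000053279), a retinaldehyde dehydrogenase whose reads may be shared with its close copy Aldh1a7, responded like them. It had 12282, 9192 and 10350 with pemafibrate over T14 to T20, against 7606, 6041 and 7554 with DMSO, and 14206, 9123 and 10748 with pemafibrate over T24 to T30, against 9976, 6436 and 8178 with DMSO. The groups did not overlap over T14 to T20, while over T24 to T30 pemafibrate replicate 2 lay below DMSO replicate 1. The rise was 0.58 ± 0.04 over T14 to T20 (adjusted p = 0.0028) and 0.47 ± 0.04 over T24 to T30 (adjusted p = 0.0086), a difference of 0.11 with an interval of −0.03 to 0.26.

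Hsdl2 (ENSMUSG00000028383), a peroxisomal protein of the short-chain dehydrogenase family, had 1011, 949 and 670 with pemafibrate over T14 to T20, against 618, 656 and 502 with DMSO. In the night-like window the signal was 948, 987 and 747 with pemafibrate, against 674, 783 and 553 with DMSO, and replicate 3 was again low under both treatments. It rose by 0.55 ± 0.07 over T14 to T20 (adjusted p = 0.028), and its effect over T24 to T30 was 0.42 ± 0.07 (adjusted p = 0.162), with a difference of 0.13 ± 0.09. Crot, the peroxisomal carnitine octanoyltransferase, was positive in all 6 pairs, with effects of 0.24 ± 0.03 over T14 to T20 and 0.15 ± 0.03 over T24 to T30 (adjusted p = 0.0615 and 0.343).

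Nrep and Zfp799 were called over T14 to T20 and had smaller effects over T24 to T30. Nrep (ENSMUSG00000042834), the neuronal regeneration related protein, had 1138, 2532 and 1194 with pemafibrate over T14 to T20, against 887, 2008 and 911 with DMSO. With pemafibrate over T24 to T30 the values were 1258, 2998 and 1559, against 1115, 2687 and 1409 with DMSO. Replicate 2 was high in all 4 groups, so the treatments overlapped, yet the pair effects were even, with 0.36, 0.33 and 0.39 over T14 to T20, and 0.17, 0.16 and 0.15 over T24 to T30. Nrep rose by 0.36 ± 0.04 over T14 to T20 (adjusted p = 0.014) and had an effect of 0.16 ± 0.04 over T24 to T30 (adjusted p = 0.366). The difference was 0.20 ± 0.06 (adjusted p = 0.393).

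Zfp799 (ENSMUSG00000095253), a zinc finger protein, had 640, 657 and 428 with pemafibrate over T14 to T20, against 423, 362 and 298 with DMSO. The values over T24 to T30 were 313, 515 and 628 with pemafibrate, against 353, 530 and 599 with DMSO, with no direction shared by the 3 pairs. It rose by 0.66 ± 0.08 over T14 to T20 (adjusted p = 0.030), and its effect over T24 to T30 was −0.05 ± 0.08. The difference of 0.71 ± 0.12 had an interval of 0.44 to 0.97 and did not pass over all genes (adjusted p = 0.274). Neither Nrep nor Zfp799 was called over T14 to T20 without replicate 1, replicate 2 or replicate 3.

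Acadm (ENSMUSG00000062908), the medium-chain acyl-CoA dehydrogenase of mitochondrial β-oxidation, was the core target with the smallest p for the difference. Its signal was 2388, 2263 and 2305 with pemafibrate over T14 to T20, against 2774, 2686 and 2330 with DMSO. In the night-like window the signal was 2832, 3058 and 2301 with pemafibrate, against 2340, 2708 and 2189 with DMSO. All 3 pairs were lower with pemafibrate in the day-like window and all 3 were higher in the night-like window, with replicate 3 giving the smallest change in each. The effects were −0.16 ± 0.05 and 0.17 ± 0.05, and the difference of −0.33 ± 0.08 had an adjusted p = 0.378 over all genes. Cd36, a fatty acid transporter with a low signal, had a difference of −0.58 ± 0.31, with pair effects of 0.14, −0.50 and 0.10 over T14 to T20 and 0.18, 0.74 and 0.56 over T24 to T30.

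Among the receptors, Ppard had the smallest p for the difference. Ppard (ENSMUSG00000002250) encodes PPARδ, which binds like DNA sites, and had 765, 817 and 669 with pemafibrate over T14 to T20, against 852, 890 and 1009 with DMSO. With pemafibrate over T24 to T30 the values were 876, 931 and 986, against 766, 759 and 744 with DMSO. No pemafibrate library overlapped the DMSO libraries of its window, in opposite directions. The effects were −0.29 ± 0.09 and 0.30 ± 0.09, and the difference was −0.59 ± 0.13 with an interval of −0.87 to −0.30 (adjusted p = 0.312). Within replicates 1, 2 and 3 it was −0.35, −0.42 and −0.998, and without replicate 3 it was −0.38. Ppara, the receptor that the compound targets, had 293, 174 and 167 with pemafibrate over T14 to T20, against 168, 192 and 92.2 with DMSO, and 256, 114 and 134 with pemafibrate over T24 to T30, against 179, 120 and 90.03 with DMSO. Replicates 1 and 3 were higher and replicate 2 lower with pemafibrate in both windows, and the difference was 0.17 ± 0.29. Pparg, the third receptor of the family, had effects of −0.14 ± 0.12 and −0.13 ± 0.12. Of the 18 tested receptors and coregulators, 11 had a larger effect over T14 to T20, beside 49.7% of all genes, with a median difference of 0.025. Med1, a Mediator subunit that PPARs recruit, had 0.20 ± 0.08 (adjusted p = 0.483). Of the 18, 1 (Med1) had an unadjusted p under 0.05 for a larger effect and 1 (Ppard) for a smaller, beside 4.36% and 5.32% of all genes. Opposite pairs in the order of Ppard were seen in 1 of the 18, Ppard itself, beside 2.96% of all genes. Ppard was named for its small p.

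The genes with the smallest p for the difference lay outside the core target list, and none passed adjustment. The following were taken by the size of the p, so their small p-values describe the choice. Rhbdd2 (ENSMUSG00000039917), a rhomboid-like membrane protein, had 1194, 972 and 889 with pemafibrate over T14 to T20, against 1322, 1150 and 1019 with DMSO, and 1237, 1252 and 1142 with pemafibrate over T24 to T30, against 981, 1025 and 982 with DMSO. The groups overlapped over T14 to T20 and did not over T24 to T30, where all pemafibrate libraries were higher. Its difference was −0.48 ± 0.07, negative in all 3 replicates. Mlxipl (ENSMUSG00000005373), the glucose-responsive transcription factor ChREBP, had 451, 317 and 227 with pemafibrate over T14 to T20, against 569, 415 and 313 with DMSO, and 404, 441 and 367 with pemafibrate over T24 to T30, against 382, 304 and 245 with DMSO. Over T14 to T20 replicate 1 was highest and replicate 3 lowest under both treatments, and its difference was −0.80 ± 0.14.

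Further genes with a smaller effect over T14 to T20 than over T24 to T30 included Eif2b2, a subunit of the exchange factor for eIF2 (−0.46 ± 0.07), Arhgap33, a GTPase activating protein (−0.85 ± 0.14), and Sardh, the mitochondrial sarcosine dehydrogenase (−0.45 ± 0.08). Srrt, a partner of the nuclear cap-binding complex, had −0.31 ± 0.06, Safb2, a nuclear scaffold attachment factor, had −0.49 ± 0.09, Shkbp1 had −0.35 ± 0.06 and Capn15, a calpain family member, had −0.37 ± 0.07. All of these, with Rhbdd2 and Mlxipl, had an adjusted p = 0.274, and in all of them the 3 pairs were lower with pemafibrate over T14 to T20 and higher over T24 to T30.

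mt-Nd3 (ENSMUSG00000064360), a complex I subunit encoded in mitochondrial DNA, showed the reverse order. It had 6594, 8470 and 7725 with pemafibrate over T14 to T20, against 5496, 6765 and 7066 with DMSO, and 7076, 9496 and 6900 with pemafibrate over T24 to T30, against 10312, 11669 and 7899 with DMSO. The groups overlapped in both windows, while the pairs of a window moved alike. The difference was 0.58 ± 0.09. Nsun3 (ENSMUSG00000050312), which modifies the mitochondrial tRNA for methionine, had 528, 507 and 466 with pemafibrate over T14 to T20, against 448, 407 and 422 with DMSO, and 436, 419 and 414 with pemafibrate over T24 to T30, against 537, 607 and 490 with DMSO. Its pemafibrate and DMSO groups did not overlap in either window, in opposite directions, and its difference was 0.59 ± 0.11. The same order of signs in all 6 pairs was seen for Zfp169, a zinc finger protein (0.98 ± 0.16), Eif5b, which joins ribosomal subunits (0.32 ± 0.05), Ptpn12, a tyrosine phosphatase (0.33 ± 0.06), and Dicer1, the ribonuclease that matures microRNAs (0.33 ± 0.06), each with an adjusted p = 0.274 like mt-Nd3 and Nsun3. Pank3, a pantothenate kinase of coenzyme A synthesis, had 0.25 ± 0.05, March7, a ubiquitin ligase, 0.25 ± 0.05, and Mob1b, an activator of LATS kinases, 0.26 ± 0.05, each with an adjusted p = 0.312.

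**Figure D3:**
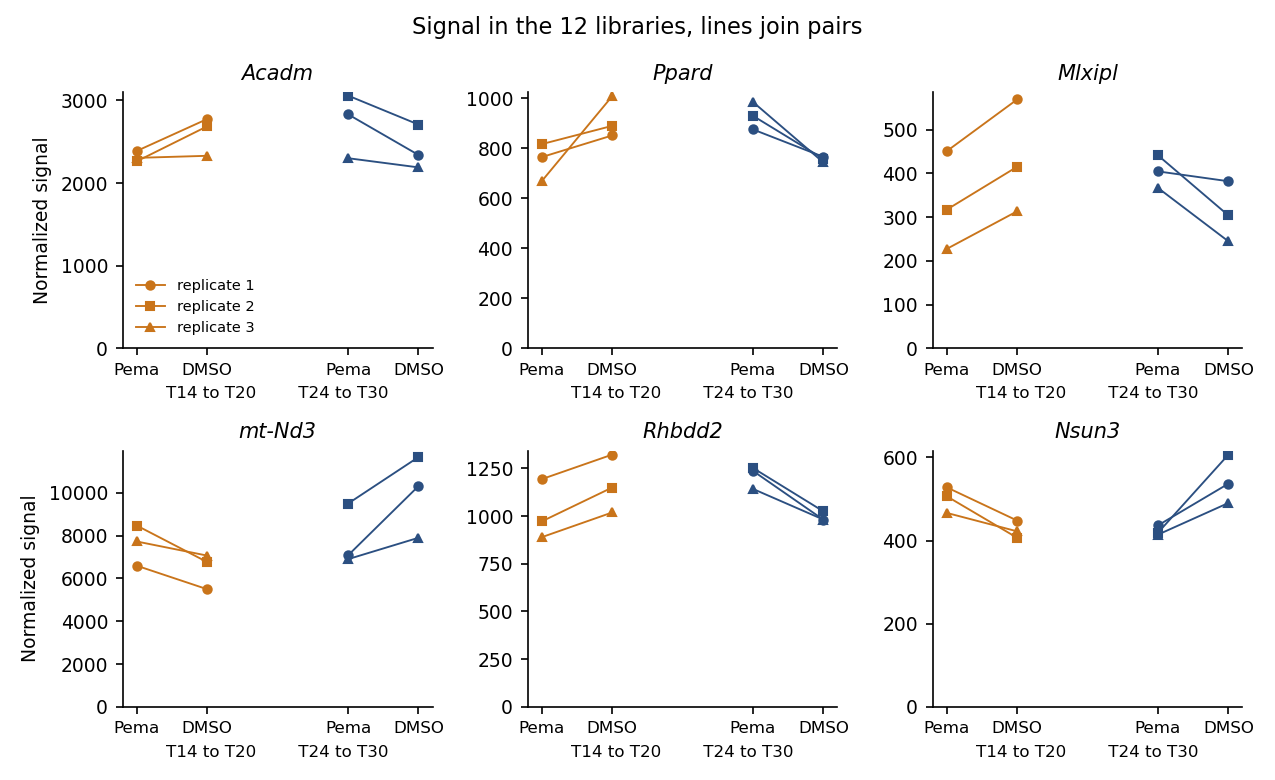
Normalized signal (vertical axes, from 0) of 6 genes in the 12 libraries, with pemafibrate left of DMSO in each window and a line joining the libraries of 1 replicate number. Orange is T14 to T20 and blue T24 to T30. For Acadm, Ppard, Mlxipl and Rhbdd2 all lines climb toward DMSO over T14 to T20 and descend over T24 to T30, and for mt-Nd3 and Nsun3 they do the reverse; none of the differences passed adjustment over all genes.

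Such opposite pairs were not rare. All 3 pairs were higher over T14 to T20 and all 3 lower over T24 to T30 for 372 genes (2.81%), and the reverse held for 392 genes (2.96%). The 3 pair effects over T14 to T20 lay all above those over T24 to T30 for 1041 genes (7.87%) and all below for 1082 (8.18%). At an unadjusted p under 0.05 in both windows, 31 genes were higher over T14 to T20 and lower over T24 to T30, 74 the reverse, 48 higher in both and 36 lower in both. Across all 13226 genes the mean effects of the 2 windows had a Pearson correlation of 0.0057, a description over genes, which are not independent replicates.

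The sign of the difference moved with the GC share of the transcript. The longest transcript had a median GC share of 43.6% among the 577 genes with a larger effect over T14 to T20 at an unadjusted p under 0.05, and of 54.7% among the 703 with a smaller effect, beside 49.4% over all genes with a value (99.8% of those tested). Over 5 equal bins of genes from the lowest to the highest GC share the median difference was 0.062, 0.036, 0.0075, −0.031 and −0.068. The rank correlation of the pair effect with GC share was −0.23, −0.10 and −0.035 in replicates 1, 2 and 3 over T14 to T20, and 0.32, 0.049 and 0.13 over T24 to T30. Both pairs of replicate 1 had the strongest relation, in opposite directions. In mt-Nd3 the share was 33.05%, in Zfp169 40.6% and in Nsun3 40.7%, while in Mlxipl it was 56.6% and in Arhgap33 60.9%. The trend on GC share and transcript length was also taken out of each library, a step added after the data were seen. The difference was then 0.42 for mt-Nd3, 0.55 for Nsun3, −0.72 for Mlxipl, −0.44 for Rhbdd2, −0.55 for Ppard and −0.34 for Acadm, and 0 genes were called (1174 at an unadjusted p under 0.05). Other differences shrank or turned in that setting: it was −0.21 for Capn15 against −0.37 without the step, −0.075 for Srebf1 against −0.18, −0.053 for Etfb against −0.16 and 0.051 for Jund against −0.15. What part GC share has in each difference was not tested further.

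**Figure D4:**
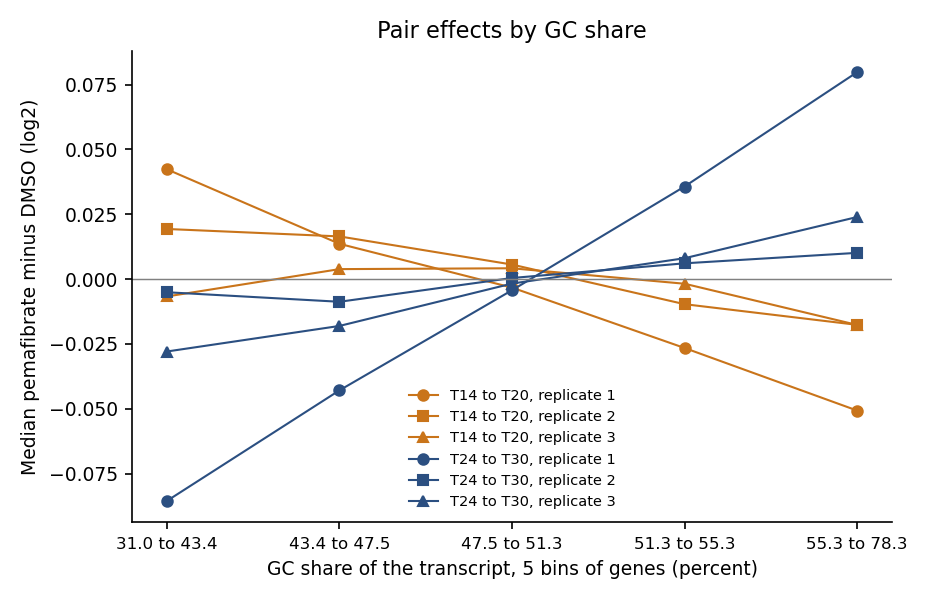
Median pemafibrate minus DMSO in log2(signal + 1) (vertical axis) over 5 equal bins of genes by the GC share of their longest transcript in percent (horizontal axis), 1 line per pair, orange for T14 to T20 and blue for T24 to T30. Every orange line ends lower and every blue line ends higher at the highest GC share than at the lowest, with the widest span for replicate 1 of each window, and the medians run from −0.086 to 0.080.

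Gene lists were described by counts and medians, beside the median difference of −0.0012 over all genes, of which 49.7% were positive. Among 26 tested genes of mitochondrial fatty acid oxidation, 20 had a larger effect over T14 to T20, with a median difference of 0.045. The median effect was 0.046 over T14 to T20 (21 positive) and 0.006 over T24 to T30 (13 positive). Genes counted with the core targets are not in this list, among them Acadm (difference −0.33) and Cpt1a (−0.04). Acadsb, the short/branched-chain acyl-CoA dehydrogenase, had a difference of 0.25 ± 0.10, and Etfb, a subunit of the electron transfer flavoprotein that takes electrons from these enzymes, −0.16 ± 0.07 (adjusted p = 0.495 for both). The medians of the mitochondrial list within replicates were 0.023, 0.00053 and 0.020. Of its 26 genes, 1 had an unadjusted p under 0.05 for a larger effect over T14 to T20 and 1 for a smaller. The shares over all genes were 4.36% and 5.32%. The 3 pair effects over T14 to T20 lay above all 3 over T24 to T30 in 1 of the 26 and below them in 0, beside 7.87% and 8.18% of all genes. Of 21 peroxisomal genes, a list without the core target Ehhadh (difference 0.21), 7 had a larger effect over T14 to T20, with a median of −0.032. The medians within replicates differed in sign, at 0.036, −0.026 and −0.047. Members with small p-values were Acaa1a, a peroxisomal thiolase (−0.16 ± 0.06, and −0.08 without replicate 1), and Pex5, the import receptor (−0.14 ± 0.06). No member of either list passed for the difference.

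Cell cycle and DNA replication genes had negative effects in all 32 members over T24 to T30 (median −0.068), beside 6659 of all 13226 genes. Over T14 to T20 the effect was negative in 22 of 32 (median −0.027), beside 6790 of all genes. The difference was positive for 24 of 32, with a median of 0.062, and the medians within replicates 1, 2 and 3 were 0.024, 0.058 and 0.053. Tyms, thymidylate synthase, had pair effects of 0.00, −0.02 and −0.01 over T14 to T20 and −0.15, −0.21 and −0.19 over T24 to T30 (difference 0.17 ± 0.05, adjusted p = 0.396). Cdc6, which loads the replicative helicase, had −0.05 ± 0.05 over T14 to T20 and −0.21 ± 0.05 over T24 to T30 (adjusted p of the difference = 0.505). No member of the list passed in either window. For the difference, 2 of the 32 members had an unadjusted p under 0.05, beside 9.68% of all genes.

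Of the 13 protein-coding transcripts of mitochondrial DNA, 11 had a larger effect over T14 to T20, with a median difference of 0.114 and a median GC share of 37.1%. The medians within replicates were 0.233 and 0.222 in replicates 1 and 2 and −0.101 in replicate 3, so replicate 3 went the other way. After mt-Nd3, the smallest p-values were those of mt-Nd1 (0.13 ± 0.05) and mt-Nd4 (0.19 ± 0.07), both complex I subunits (adjusted p = 0.461 and 0.476). The difference of mt-Nd1 was 0.014 under quantile normalization, and that of mt-Nd4 was 0.08 with the GC and length trend removed. With the GC and length trend removed the median of the list was 0.027. Among nuclear genes of the respiratory chain the median was 0.011, with 15 of 26 larger.

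Among lipid synthesis genes, 18 of 24 for cholesterol synthesis and uptake (median 0.026) and 15 of 20 for fatty acid and triglyceride synthesis (median 0.049) had a larger effect over T14 to T20. In 7 of the 24 cholesterol genes the 3 pair effects over T14 to T20 lay above all 3 over T24 to T30, where 7.87% of all genes did so. Of the 20 genes for fatty acid and triglyceride synthesis, 5 lay above in this way and 4 lay below, where 8.18% of all genes lay below. At an unadjusted p under 0.05 the difference was larger for 2 of these 20 and smaller for 2. Cholesterol genes with small p included Msmo1, the sterol methyl oxidase (0.20 ± 0.06, adjusted p = 0.393), and Cyp51, the lanosterol demethylase (0.14 ± 0.05, adjusted p = 0.460). In the other list Srebf1, which encodes the regulator SREBP-1, had −0.18 ± 0.08 and Fads2, the Δ6-desaturase, 0.10 ± 0.04 (adjusted p = 0.495 for both), beside Mlxipl described above.

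No core clock gene was called for pemafibrate in either window. Single members had effects of either sign, such as 0.22 ± 0.08 for Rorb, a nuclear receptor, over T24 to T30 (adjusted p = 0.487) and −0.22 ± 0.11 for Per1, a repressor of the clock, over T14 to T20 (adjusted p = 0.715). Of 19 tested core clock genes 6 had a positive effect over T14 to T20 and 6 over T24 to T30, with medians of −0.021 and −0.020. The effect was larger over T14 to T20 for 7 of 19, with a median difference of −0.022, and no member had an unadjusted p under 0.05 for the difference, beside 9.68% of all genes. The nearest was Clock, with 0.13 ± 0.06 (adjusted p = 0.532). Among 13 clock outputs 7 were larger, with a median of 0.020, and Usp2, a deubiquitinase, had pair effects of −0.43, −0.24 and −1.18 over T14 to T20 and 0.07, 0.58 and 0.69 over T24 to T30 (difference −1.06 ± 0.47, adjusted p = 0.516). Usp2 had a low signal, with a mean of 12.8 over the 12 libraries, near the minimum of 10. Its DMSO library of replicate 3 over T14 to T20 had 28.96, and without replicate 3 the difference was −0.66. Levels of clock genes were not compared between windows, since each window has a table of its own and scaling across tables is not stated.

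**Figure D5:**
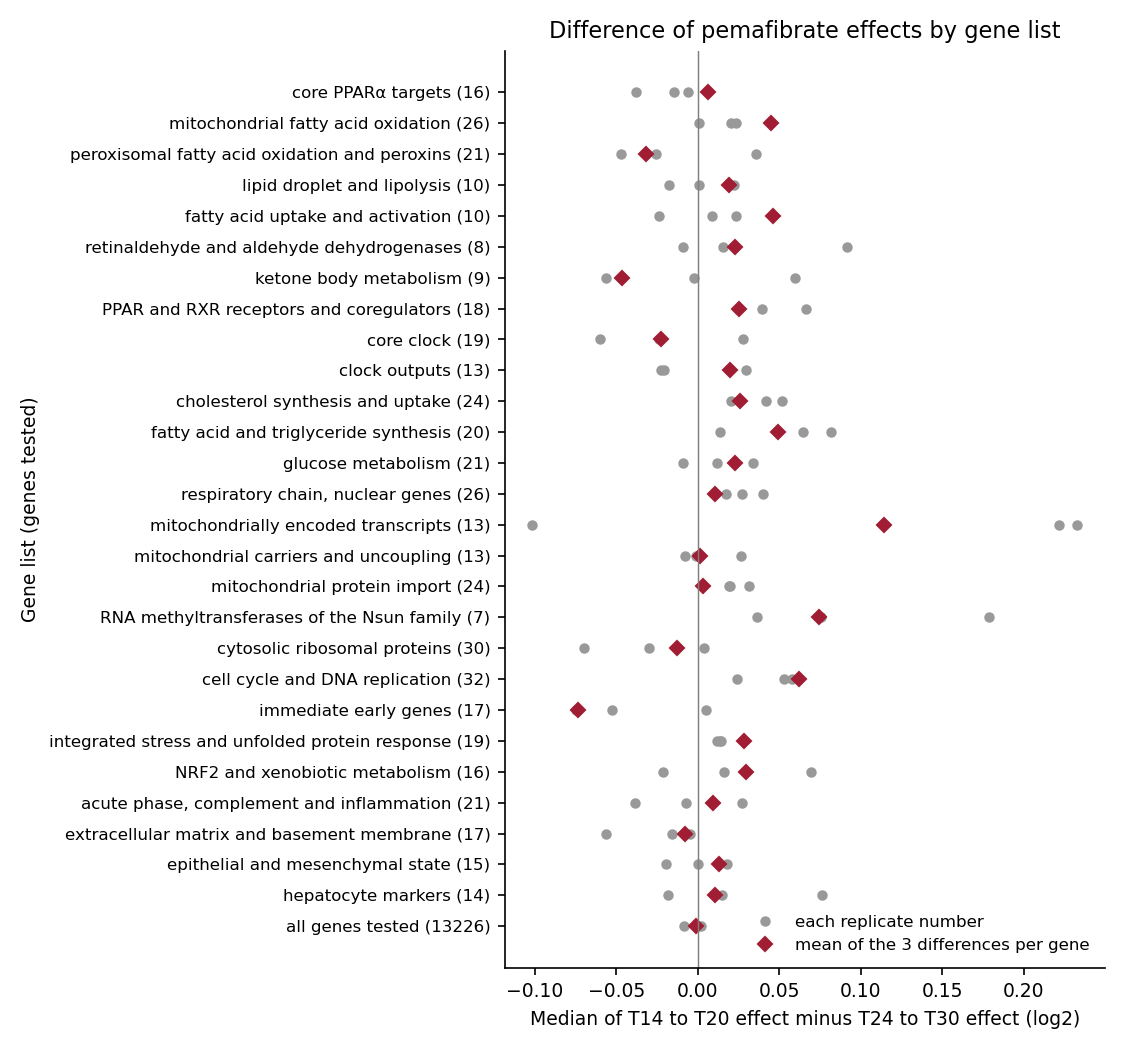
Median over the genes of a list of the T14 to T20 effect minus the T24 to T30 effect (log2, horizontal axis), for each list with at least 7 tested genes and for all genes. Red diamonds are medians of the per-gene mean over the 3 replicate numbers and grey points the medians within each replicate number. Mitochondrially encoded transcripts have the largest median (0.114) and the widest spread between replicates (−0.101 to 0.233), and the other red medians run from −0.073 to 0.075.

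Immediate early genes had a larger effect over T14 to T20 in 4 of 17 cases, with a median difference of −0.073 and a median GC share of 54.4%. The medians within replicates were −0.075, 0.0053 and −0.052 in replicates 1, 2 and 3. Nr4a1, an orphan nuclear receptor, had −0.37 over T14 to T20 and 0.01 over T24 to T30, and Jund, an AP-1 subunit, had −0.05 and 0.10 (adjusted p of the difference = 0.511 for both). The GC share of Jund was 67.1%, and its difference of −0.15 turned to 0.051 with the GC and length trend removed. Cytosolic ribosomal protein genes had 13 of 30 larger and a median of −0.013. Glucose metabolism (11 of 21, median 0.023) and hepatocyte markers (9 of 14, median 0.010) were split about evenly.

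Genes that had been named in earlier results on this difference were looked at in the same fit. Zeb1, a repressor of epithelial genes, had pair effects of 0.35, 0.10 and 0.45 over T14 to T20 and −0.26, −0.03 and −0.12 over T24 to T30 (difference 0.43 ± 0.10, adjusted p = 0.312). Timm17b, a subunit of the mitochondrial import channel TIM23, had a difference of 0.45 ± 0.14 (adjusted p = 0.422). Col7a1, type VII collagen, had −0.77 ± 0.25 (adjusted p = 0.435), and its T24 to T30 effects of 0.72, −0.38 and 0.64 show replicate 2 going against the others. Without replicate 2 its difference was −1.17 and was called, and over all settings it ran from −1.17 to −0.54. Syt7, a calcium sensor of membrane fusion, had even effects of 0.90, 0.86 and 0.91 over T24 to T30 but −0.09, 0.93 and 0.04 over T14 to T20 (difference −0.60 ± 0.24, adjusted p = 0.481). Gm10241, a predicted gene, had −0.83, −0.85 and −0.91 over T14 to T20 and 0.25, 0.39 and −0.68 over T24 to T30 (difference −0.85 ± 0.25, adjusted p = 0.396). Apol7b was below the minimum mean.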

How the data were processed

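Per the labels' protocols, libraries were made from poly(A) RNA of AML12 cells with dUTP in the second strand and sequenced from DNA nanoballs. The authors deposited 1 table per window, whose values are normalized signal per Ensembl gene ID. Per the file headers, each column name carries the ending of a salmon quantification file. The sources used here give neither the scaling method nor whether each window was scaled separately. Separate scaling was inferred from the 1 table per window. The sources used here do not name the aligner, the genome build, the annotation or the strand setting in counting. Within a tolerance of 0.05, 56.8% to 73.7% of low values (up to 8 reads) came out whole, so reads were not recovered and no count test was run. Of 35551 IDs, 35181 had a symbol.

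Signal was analysed as log2(value + 1), which understates changes of low genes. The minimum was a mean of 10 over the 12 libraries. The model was fitted in R 4.3.3 with limma 3.58.1, using lmFit and a variance trend in eBayes, with each pair of a window and replicate number as a block and a treatment effect per window. Tests were two-sided, with Benjamini-Hochberg adjustment over all 13226 genes and a threshold of 0.05. Replicate numbers come from the titles, and every same-number correlation exceeded 0.1, so pairs were used. GC share and length were those of the longest GENCODE transcript of a gene. The fit was checked on simulated tables. Alternatives covered the block, pseudocounts of 0.5 and 5, filters, scaling, the variance prior and left-out replicates or pairs.

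The genes and lists were chosen with earlier results of these data known. The rule named the 10 smallest p-values of the difference in each direction, core PPARα targets and receptors, genes called in a window, the 3 smallest p-values per list, up to 6 genes of opposite sign at an unadjusted p under 0.05, and genes of earlier results. Not every gene that the rule takes in, or that a count holds, is reported here. Cbx3-ps6, Rpl15-ps3, Rorb and Per1 were named after their values were seen.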

Additional observations from a re-analysis of the deposited data

Results flagged for a closer look

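For 26 of the 63 named genes with a recomputed difference, all 3 pairs moved one way with pemafibrate in one window and the other way in the other window. Of all genes tested 2.81% and 2.96% did so in the 2 possible orders. Many of the named genes were taken for a small p of the difference or for opposite signs. The count of 26 therefore describes that choice and cannot be read as an excess over those shares. The difference itself was tested by limma in each case and passed for none of the 26 after adjustment over all genes. Of these 26 genes 14 were higher over T14 to T20 and lower over T24 to T30. Among the 12 with the reverse order the difference was −0.33 for Acadm (adjusted p = 0.378), −0.59 for Ppard (adjusted p = 0.312) and −1.06 for Usp2, whose signal was low (adjusted p = 0.516). It was −0.85 for Arhgap33, −0.37 for Capn15, −0.46 for Eif2b2, −0.80 for Mlxipl, −0.48 for Rhbdd2, −0.49 for Safb2, −0.45 for Sardh, −0.35 for Shkbp1 and −0.31 for Srrt, each with an adjusted p = 0.274.

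In the other order the difference was 0.33 for Dicer1, 0.32 for Eif5b, 0.58 for mt-Nd3, 0.59 for Nsun3, 0.33 for Ptpn12 and 0.98 for Zfp169, each with an adjusted p = 0.274. It was 0.25 for March7, 0.26 for Mob1b, 0.25 for Pank3 and 0.43 for Zeb1, each with an adjusted p = 0.312. It was 0.22 for Uqcrc2, a core subunit of respiratory complex III (adjusted p = 0.324), 0.20 for Msmo1 (adjusted p = 0.393), 0.45 for Timm17b (adjusted p = 0.422) and 0.10 for Fads2 (adjusted p = 0.495).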

How the results depend on the processing

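The count of genes whose pemafibrate effect differed between windows was 0 in the paired fit and in every other setting except some that left out a replicate or a pair, where it ranged from 0 to 1. Without the replicate block it was 0 (121 genes at an unadjusted p under 0.05). The count over T14 to T20 was 10, and it was 0 with no replicate block, 0 with no variance trend, 4 with no filter and 5 on the window's own 6 libraries. Over T24 to T30 it was 6, and it was 0 with no replicate block, 0 with no variance trend and 0 with no filter. Leaving out replicates or pairs gave 1 to 10 calls over T14 to T20 and 0 to 6 over T24 to T30. The cause of these changes was not tested. Of 63 named genes with a recomputed difference, 52 kept its sign in every setting and 11 did not. No call reversed, but the paired fit called 0 differences and only 2 of 1447 recomputed differences were called, so a reversal could hardly arise. List medians changed sign in 57 of 734 recomputations. The unknown read depth, 3 pairs a window and the separate normalization of the tables, which was inferred, limit what the data can show.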
